A study of Mus musculus with 6 samples.

Results

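The genes described here encode 8 proteins that neutrophils and their marrow precursors store in granules. They were taken by symbol, as the 8 rows among 35237 genes of the Cufflinks table, and the same symbols were read among the 36536 entries of the ALEXA-Seq table. The 3 azurophil granule genes were Mpo, Prtn3 and Ctsg, and the 5 specific granule genes were Ltf, Camp, Ngp, Lcn2 and Cd177. RNA-Seq libraries had been made from 3 sets of bone marrow monocytes (BMDM), sorted by FACS as CD11b+ CD45high CD115+ Ly6G- cells, and from 3 sets of brainstem microglia (BSM), sorted as CD11b+ CD45low CD115low Ly6G- cells. All mice were untreated C57BL/6 animals of 6 weeks of age, without a transgene, and each library came from the pooled cells of a set of mice. By the labels and the study's RNA quality list, the mice of replicate 1 were male in both groups. Those of replicates 2 and 3 were female, whereas the Results text of the study speaks of male mice. BMDM here were sorted directly from marrow and were not grown in culture. The comparison of the cell types asked which transcripts distinguish marrow monocytes from brain microglia, and for these genes the 3 BMDM libraries were also compared with each other.

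Granules are made in waves as a neutrophil matures in the marrow. Azurophil (primary) granules are filled first, at the promyelocyte stage, with myeloperoxidase and serine proteases, and transcripts of these proteins are also known in the granulocyte-monocyte progenitors from which monocytes arise. Specific (secondary) granules are filled later, at the myelocyte and metamyelocyte stages, with lactoferrin, cathelicidin and other antimicrobial proteins, and mature neutrophils keep the proteins after most of the transcripts are gone. The C/EBP and PU.1 families of transcription factors are known to drive many granule genes.

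The promoters of 5 members, both azurophil and specific, are shown because all members were highest in the same BMDM library, and the letters show how the stretches before their starts differ. Each is the 250 bases before the annotated gene start, 5′ to 3′ on the gene's strand, from RefSeq on GRCm38.p6, and all 8 members were matched there. Capitals mark matches, on either strand, to TTNCNNAA, a C/EBP-type motif whose reverse is TTNNGNAA, or to GAGGAA, a PU.1/Ets-type motif whose reverse is TTCCTC. No match overlapped another.
Mpo (chr11:87793534-87793783, plus strand): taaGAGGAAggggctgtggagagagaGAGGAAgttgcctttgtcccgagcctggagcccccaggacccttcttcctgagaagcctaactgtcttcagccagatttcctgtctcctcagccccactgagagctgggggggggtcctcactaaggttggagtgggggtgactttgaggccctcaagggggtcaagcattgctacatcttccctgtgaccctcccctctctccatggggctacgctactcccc
Ctsg (chr14:56102575-56102824, minus strand): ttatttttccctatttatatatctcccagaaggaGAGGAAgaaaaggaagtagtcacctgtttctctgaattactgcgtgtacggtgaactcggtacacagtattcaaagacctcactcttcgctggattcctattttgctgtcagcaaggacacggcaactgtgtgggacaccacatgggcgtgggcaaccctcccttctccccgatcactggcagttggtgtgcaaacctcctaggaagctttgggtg
Ngp (chr9:110419558-110419807, plus strand): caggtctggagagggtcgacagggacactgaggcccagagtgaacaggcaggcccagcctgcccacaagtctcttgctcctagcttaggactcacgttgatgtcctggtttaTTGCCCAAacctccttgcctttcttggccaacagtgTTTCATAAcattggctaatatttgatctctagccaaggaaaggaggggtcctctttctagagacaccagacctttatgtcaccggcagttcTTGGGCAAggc
Ltf (chr9:111019042-111019291, plus strand): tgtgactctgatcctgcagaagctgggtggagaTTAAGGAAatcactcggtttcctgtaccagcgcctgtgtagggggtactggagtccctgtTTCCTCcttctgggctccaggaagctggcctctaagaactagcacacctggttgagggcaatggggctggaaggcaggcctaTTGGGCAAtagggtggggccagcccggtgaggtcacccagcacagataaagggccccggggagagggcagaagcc
Camp (chr9:109849457-109849706, minus strand): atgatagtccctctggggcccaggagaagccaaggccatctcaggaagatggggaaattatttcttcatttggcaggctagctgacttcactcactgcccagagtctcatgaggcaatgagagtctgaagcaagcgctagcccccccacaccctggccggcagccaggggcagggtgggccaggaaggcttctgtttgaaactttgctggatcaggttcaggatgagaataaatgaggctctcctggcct
The C/EBP-type letters were present in the promoters of Ltf (2 matches), Ngp (3 matches), Lcn2 (1 match) and Cd177 (1 match), and in none of the 3 azurophil promoters. Of all 32851 RefSeq promoters of this length, 36.8% hold them, as do 4 of the 8 members. Little can therefore be read from their lack in 3 promoters. The PU.1/Ets-type letters were present in 6 of the 8 promoters, those of Mpo (2 matches), Prtn3, Ctsg, Ltf, Lcn2 and Cd177, against 23.3% of all promoters. The Camp window held neither. A match is a stretch of letters and not a measured site.

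In the expression files the genes lie on the mm9 build at chr11:87607083-87617915 (Mpo), chr10:79342412-79345915 (Prtn3), chr14:56718718-56721411 (Ctsg), chr9:110921796-110945270 (Ltf), chr9:109749889-109751970 (Camp), chr9:110322254-110325514 (Ngp), chr2:32240153-32243317 (Lcn2) and chr7:25529004-25545330 (Cd177). Camp, Ngp and Ltf thus lie near each other on chromosome 9. Counting by strand is not stated in the sources used here, and Mpo overlaps the antisense gene Gm11505 and Prtn3 overlaps Plppr3 in GENCODE M21, so the reads of these partners cannot be told apart. Gm11505 holds sequence matching 17.2% of the longest Mpo transcript. Since it overlaps Mpo, this may be the shared stretch and not a copy elsewhere, which was not checked. For the other members, no matching gene covered more than 11.1% of the transcript, the value for Cd177.

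FPKM, fragments scaled by transcript length and by mapped reads, summed to between 163199 and 194184 over all genes in the BMDM libraries and to between 68287.8 and 75021.4 in the BSM libraries. The study lists mapped reads for each library, fewest in BMDM replicate 2, which also had the lowest mapped share of all, but the number of reads behind the value of a gene is not known. BMDM replicate 2 had 5083 genes at an FPKM of 3 or more, against 4379 and 4819 in replicates 1 and 3. The study's RNA quality list gives BMDM replicate 2 far fewer sorted cells and far less RNA than BMDM replicates 1 and 3. It gives BSM replicate 1 the least RNA and the lowest integrity of all, far below the integrity range quoted in the study's text. BSM replicate 1 also listed 472 of the 6364 tested genes at 0, against 115 and 93 in the other BSM libraries, so its zeros are given as listed and not as absence. The part of RNA amount and of mapping in the results below was not tested.

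Among the azurophil genes, Mpo, which encodes the peroxidase that makes hypochlorous acid, was the most abundant of the 8 members in every BMDM library. Its FPKM was 32.7, 181 and 67.1 in BMDM replicates 1, 2 and 3 (93.6 ± 77.6, SD, n = 3), and 0, 0.00913 and 0 in the BSM libraries. Every BMDM value lay above every BSM value. Mpo ranked 510, 66 and 236 among the 35237 genes of the BMDM libraries.

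Ctsg encodes cathepsin G, a serine protease. Its FPKM was 2.74, 17.3 and 6.94 in BMDM replicates 1 to 3 (9.01 ± 7.52, SD, n = 3), and it was listed at 0 in all 3 BSM libraries. Prtn3, which encodes the serine protease proteinase 3, had FPKM of 0.424, 5.03 and 1.34 (2.26 ± 2.44, SD, n = 3) and was also listed at 0 in all 3 BSM libraries. All 3 azurophil genes had the same order of the BMDM libraries, with replicate 2 highest, then replicate 3, then replicate 1.

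Among the specific granule genes, Ngp varied most. It encodes neutrophilic granule protein, a relative of the cathelicidins and cystatins, and its FPKM was 2.44, 77.1 and 3.44 in BMDM replicates 1, 2 and 3 (27.7 ± 42.8, SD, n = 3) and 0, 0.0623 and 0 in BSM. It ranked 207 among all genes in BMDM replicate 2, but 4920 and 4479 in replicates 1 and 3. The second library of both cell types thus held the highest Ngp value, although the BSM value was below 0.1.

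Camp, the cathelicidin antimicrobial peptide precursor, had FPKM of 0.388, 5.86 and 0.309 in BMDM (2.19 ± 3.18, SD, n = 3). Ltf, which encodes the iron-binding protein lactoferrin, had FPKM of 0.355, 3.48 and 0.348 (1.39 ± 1.81, SD, n = 3). Both were listed at 0 in the 3 BSM libraries, and both were below 0.4 in each of BMDM replicates 1 and 3.

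Lcn2 encodes lipocalin 2, which binds bacterial siderophores. Its FPKM was 2.09, 8.76 and 0.947 in BMDM replicates 1, 2 and 3 (3.93 ± 4.22, SD, n = 3) and was listed at 0 in BSM. Cd177, a membrane glycoprotein of neutrophils, was the steadiest member, with FPKM of 5.36, 13.8 and 4.72 (7.95 ± 5.05, SD, n = 3) and 0, 0 and 0.00476 in BSM. Its coefficient of variation over the BMDM libraries was 63.5%, against 83.0% to 155% for the other members.

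**Figure D1:**
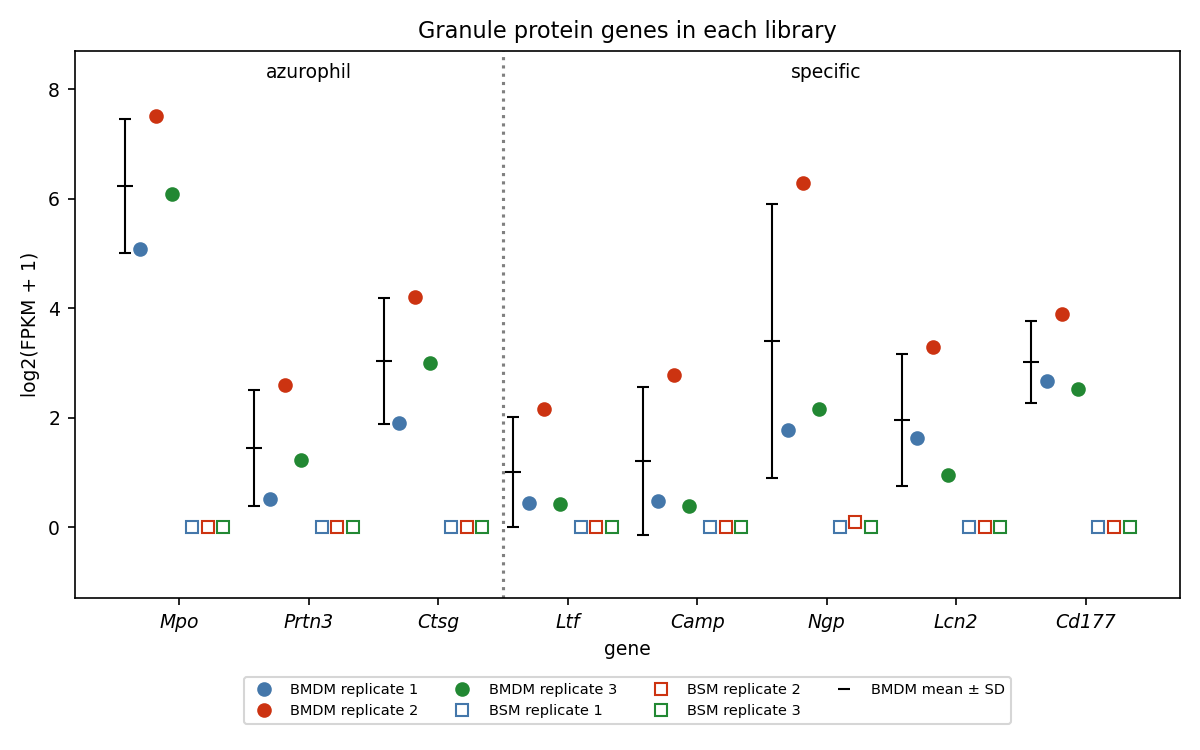
Expression of the 8 granule protein genes as log2(FPKM + 1) in the 3 BMDM libraries (filled circles) and the 3 BSM libraries (open squares), with replicates 1, 2 and 3 in blue, red and green; the black bars give the BMDM mean ± SD on this scale. BMDM replicate 2 is the highest library for each gene, and the BSM libraries lie at or close to 0.

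The sum over the azurophil genes was 35.9, 203 and 75.4 FPKM in BMDM replicates 1, 2 and 3, and the sum over the specific genes was 10.6, 108.9 and 9.77 FPKM. Specific granule genes therefore made up 22.9%, 34.9% and 11.5% of the summed FPKM of the members. Mpo alone accounted for 70.3%, 58.0% and 78.8%, and Ngp for 5.26%, 24.7% and 4.04%. Without Mpo and Ngp, the specific share was 72.1%, 58.8% and 43.3%, so that it was then highest in replicate 1 and not in replicate 2. The order of the levels also differed between libraries. In replicate 1, Cd177 followed Mpo, with Ctsg, Ngp and Lcn2 next and Prtn3, Camp and Ltf last. In replicate 2, Ngp followed Mpo and stood above Ctsg, Cd177, Lcn2, Camp, Prtn3 and Ltf. In replicate 3, Ctsg and Cd177 followed Mpo, with Ngp, Prtn3, Lcn2, Ltf and Camp below. In the order of the BMDM means, each gene differed from the next by less than the larger of their SDs, although Mpo was highest in each library.

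The ALEXA-Seq values are linear, in a unit that the sources used here do not name, and they gave the same library order for each member except Ltf. Mpo had ALEXA-Seq values of 421, 2271 and 840 in BMDM replicates 1, 2 and 3, and Ngp had 55.9, 1943 and 76.2. In BSM, Mpo had 0, 0.134 and 0 and Ngp 0, 1.62 and 0.0977. Ltf had 5.86, 65.1 and 6.24 in BMDM, so replicate 3 stood slightly above replicate 1 there, and slightly below it in FPKM. The specific genes made up 27.1%, 47.5% and 15.1% of the summed ALEXA-Seq values.

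Against BSM, 6 of the 8 members were higher in BMDM by limma on log2(FPKM + 1) at an adjusted p-value under 0.05, beside 45.3% of all 6364 tested genes (54.5% were called in either direction). The 6 were all 3 azurophil genes and the specific granule genes Ngp, Lcn2 and Cd177. Ltf, Camp, Prtn3 and Lcn2 reached the minimum FPKM of 3 for testing only through BMDM replicate 2, so the count is no support for a difference of the group as a whole. All 8 members had every BMDM library above every BSM library, as had 55.2% of all tested genes. For a single gene, the exact permutation test (two-sided) of 3 against 3 libraries gave p = 0.1, the smallest value it can give.

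The largest difference was that of Mpo, at 6.22 on the log2(FPKM + 1) scale (SE 0.55, limma adjusted p = 8.3e-05). Ctsg differed by 3.03 (SE 0.53, limma adjusted p = 0.00233) and Cd177 by 3.02 (SE 0.39, limma adjusted p = 0.000546). For Ngp the difference was 3.38, with an SE of 1.06, the widest of the 8 (limma adjusted p = 0.0280). Lcn2 differed by 1.96 (SE 0.57, limma adjusted p = 0.0205). Prtn3, at 1.44, passed narrowly (SE 0.53, limma adjusted p = 0.0495). Ltf, with a difference of 1.01 (SE 0.53, limma adjusted p = 0.136), and Camp, with 1.21 (SE 0.64, limma adjusted p = 0.142), did not pass. The added 1 holds these differences down for genes of low FPKM.

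The median difference over all tested genes was 0.81 on the same scale, and the BMDM libraries summed to more FPKM than the BSM libraries. After quantile normalization the median was 0.02, and the differences were 5.78 for Mpo, 2.60 for Cd177, 2.59 for Ctsg and 2.88 for Ngp. Mpo, Ctsg and Cd177 were then called, whereas Ngp (limma adjusted p = 0.0622), Lcn2 (0.0611) and Prtn3 (0.143) no longer passed. The difference was positive for all 8 members under every scaling tried. All 8 were at or close to 0 in BSM, so the sign could hardly change and is no support.

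Without BMDM replicate 2, the other 4 members no longer reached the minimum FPKM, and all 4 that remained were called higher in BMDM, beside 36.2% of 5880 tested genes. They stayed in the test through BMDM values alone, so this count is no support either. Mpo then differed by 5.58 (SE 0.36, limma adjusted p = 0.000305), Ctsg by 2.45 (SE 0.37, limma adjusted p = 0.00449) and Cd177 by 2.59 (SE 0.24, limma adjusted p = 0.000798). The difference of Ngp fell from 3.38 to 1.94, while its SE fell to 0.25 (limma adjusted p = 0.0026).

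In the ALEXA-Seq values, all 8 members were higher in BMDM by the same test, beside 37.1% of the 6364 genes tested (47.9% in either direction). Ltf and Camp passed there, with differences of 3.89 (SE 0.99, limma adjusted p = 0.0177) and 4.66 (SE 1.16, limma adjusted p = 0.0164) on the log2(value + 1) scale. Without BMDM replicate 2, only Mpo, Ctsg, Ngp and Cd177 were among the ALEXA-Seq genes tested, and all 4 passed, beside 24.3% of the genes tested. These 4 too were kept by their BMDM values.

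**Figure D2:**
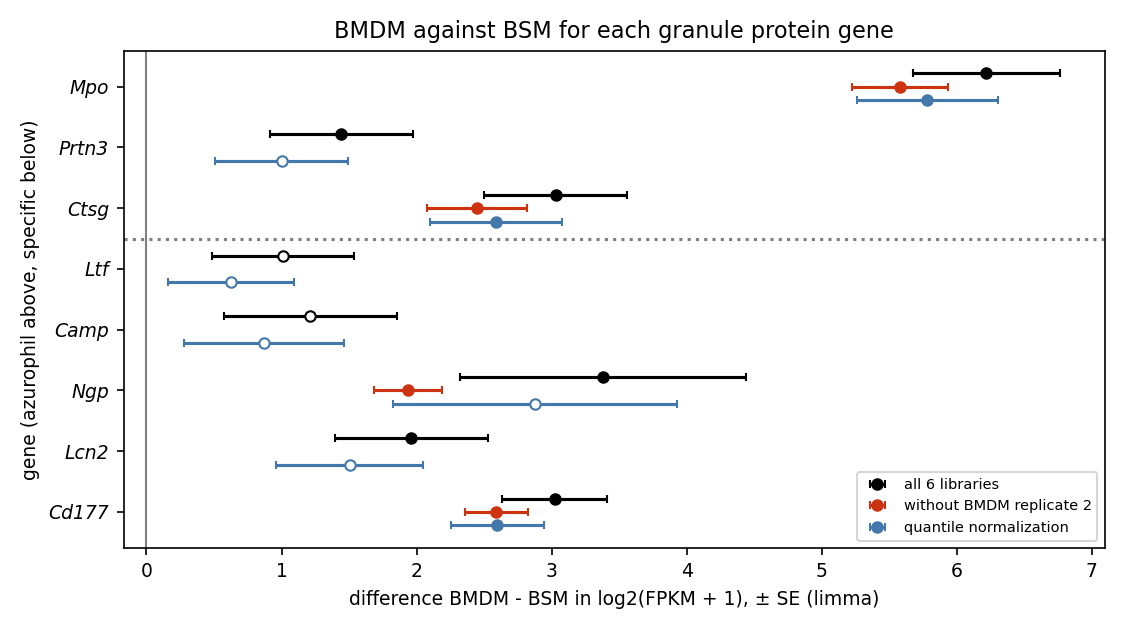
Difference between BMDM and BSM in log2(FPKM + 1) for each member (horizontal axis, points with bars of ± SE from limma), for all 6 libraries (black), without BMDM replicate 2 (red) and after quantile normalization (blue); filled points have an adjusted p-value under 0.05. Prtn3, Ltf, Camp and Lcn2 have no red point because they were under the minimum FPKM without that library, and the SE of Ngp shrinks from 1.06 to 0.25.

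BMDM replicate 2 had higher values of all 8 transcripts than replicates 1 and 3. Since this compares 1 library with 2 of the same group, it was not tested and is given as a description. Counting FPKM + 1, replicate 2 was at least 2-fold above both other BMDM libraries for 8 of 8 members, beside 4.01% of all tested genes (255 of 6364), and at least 2-fold below both for 1.89% of all tested genes. Prtn3, Ltf, Camp and Lcn2 were among the tested genes only through replicate 2, so an excess there was built into their inclusion. Where replicate 1 or 3 itself reached an FPKM of 3, a condition added after the values were seen, 4 of 4 members (Mpo, Ctsg, Ngp and Cd177) were at least 2-fold above both, beside 2.03% of such genes (101 of 4967). At 3-fold, a threshold set after the values were seen, Ltf, Camp, Ngp and Lcn2 passed, beside 1.35% of all tested genes. Of the 4 members that did not need replicate 2 for the minimum, Ngp alone passed 3-fold, beside 0.383% of such genes. In the ALEXA-Seq values, 8 of 8 members passed 2-fold, beside 7.5% of all tested genes. There too, Prtn3, Ltf, Camp and Lcn2 were tested only through replicate 2, and both tables come from the same libraries.

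The azurophil genes were 5.54-fold (Mpo), 6.32-fold (Ctsg) and 11.8-fold (Prtn3) higher in replicate 2 than in replicate 1 in FPKM. Relative to replicate 3 the same genes were 2.70-fold, 2.498-fold and 3.76-fold higher. The factor against replicate 1 was thus larger than that against replicate 3 for each azurophil gene.

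The specific genes showed no such common order. Ngp was 31.5-fold higher than in replicate 1 and 22.4-fold higher than in replicate 3, and Camp was 15.1-fold and 19.0-fold higher. Ltf was 9.81-fold and 10.01-fold higher, and Lcn2 was 4.18-fold and 9.25-fold higher. Cd177 had the smallest ratios of the specific genes, at 2.57-fold and 2.92-fold. Ngp stood second of all 6364 tested genes by the excess of replicate 2 over the higher of the other libraries, Camp was at rank 14, and the remaining members were at ranks 62 to 168.

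On the log2(FPKM + 1) scale, the excess of replicate 2 over the mean of replicates 1 and 3 had a median of 1.75 for the azurophil genes (from 1.72 to 1.93) and of 1.99 for the specific genes (from 1.29 to 4.32). The median over all tested genes was 0.14, and 5% to 95% of them lay between -0.77 and 1.09. In the ALEXA-Seq values the medians were 2.00 for the azurophil genes, 3.23 for the specific genes and 0.24 for all tested genes. The 2 ranges overlap in FPKM, since the azurophil values lie within the range of the specific values.

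Replicates 1 and 3 differed from each other in the azurophil genes, a comparison chosen after the values were seen. In replicate 3, FPKM was 2.05-fold (Mpo), 2.53-fold (Ctsg) and 3.15-fold (Prtn3) that of replicate 1. Among the specific genes the same ratio was 1.41 for Ngp, 0.981 for Ltf, 0.881 for Cd177, 0.796 for Camp and 0.452 for Lcn2. Counting FPKM + 1, 3 of 3 azurophil genes and 0 of 5 specific genes were at least 1.5-fold higher in replicate 3 than in replicate 1, beside 7.56% of all tested genes. The median difference was 1.02 for the azurophil genes, -0.08 for the specific genes and 0.18 for all tested genes on the log2(FPKM + 1) scale. The ALEXA-Seq ratios of replicate 3 to replicate 1 were 2.00, 2.30 and 3.12 for Mpo, Ctsg and Prtn3, and between 0.507 and 1.36 for the specific genes. There too, 3 of 3 azurophil genes and 0 of 5 specific genes passed 1.5-fold, beside 10.9% of all tested genes. With 1 library each, the difference between replicates 3 and 1 has no replicate check, and sex, set of mice and library cannot be told apart in it. In these bulk samples a change in the number of cells of a type and a change in the RNA per cell cannot be told apart either.

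**Figure D3:**
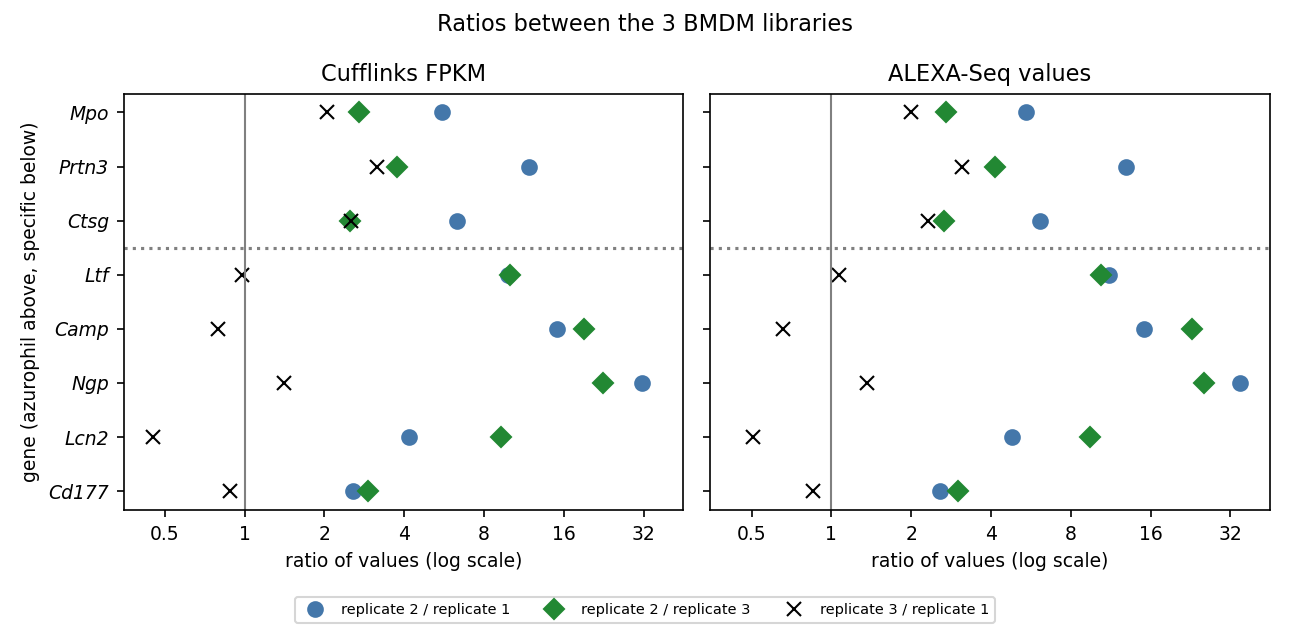
Ratios between BMDM libraries for each member in FPKM (left) and in ALEXA-Seq values (right), on a log axis, with replicate 2 over replicate 1 as blue circles, replicate 2 over replicate 3 as green diamonds and replicate 3 over replicate 1 as black crosses. The crosses lie at 2.05 to 3.15 for the azurophil genes in FPKM and at 0.452 to 1.41 for the specific genes, and all circles and diamonds lie above 2.

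Other genes of the granule programme moved with replicate 2 in part. The counts of these and later lists stand beside 45.3% of all tested genes called higher in BMDM. Counts of genes at least 2-fold above both in replicate 2 stand beside 4.01% of all tested genes. Of the list genes that passed, Cst7, Pglyrp1, Cxcr2, Retnlg, Ms4a3, Prg2, Ear1, Nkg7, Slc4a1 and Hbb-b1 reached the minimum FPKM only through replicate 2. An excess there was built into their inclusion. Of the other primary granule genes, 4 were tested, and 2 were higher in BMDM than in BSM (Lyz2 and Elane). Elane encodes neutrophil elastase, a serine protease close to Prtn3, and its FPKM was 9.75, 56.0 and 10.7 in BMDM and 0 in each BSM library (log2 difference 4.27, limma adjusted p = 0.000848). Unlike the 3 azurophil members it stood nearly level in replicates 1 and 3, at a ratio of 1.09. Lyz2, the lysozyme of monocytes and neutrophils, had 1114, 2569 and 1338 FPKM in BMDM. Gusb and Man2b1, lysosomal hydrolases found in most cells, did not pass the test. Of the 4 tested genes, Elane alone was at least 2-fold above both other BMDM libraries in replicate 2 on FPKM + 1. Prss57, listed as Prssl1 and under the minimum for testing, had 0.464, 1.83 and 0.368 FPKM.

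Of 5 tested genes for the packing, processing and inhibition of granule proteases, 4 were higher in BMDM. Srgn encodes serglycin, the proteoglycan that binds granule proteases, and had 28.1, 105 and 42.3 FPKM in BMDM (log2 difference 2.82, limma adjusted p = 0.0165). Its BMDM libraries thus had the order of the azurophil members, which Ngp, Elane, Lyz2, S100a8 and S100a9 had too. The share of all tested genes with this order was not counted, so it marks no group of genes. Ctsc, the protease that activates Prtn3, Ctsg and Elane, had 61.3, 57.0 and 67.2 FPKM and so varied little (log2 difference 0.66, limma adjusted p = 0.0299). The elastase inhibitors Serpinb1a and Slpi differed by 2.36 and 2.30 on the log2(FPKM + 1) scale. In replicate 2, Srgn and Cst7 were at least 2-fold above both other BMDM libraries.

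Of the other specific, gelatinase and mature granule genes, 6 were tested, and 6 were higher in BMDM, beside 45.3% of all tested genes. All 6 had at most 1.40 FPKM in BSM and were tested through their BMDM values, so the count is no support. Mmp8, a collagenase of specific granules, had 13.9, 14.7 and 14.5 FPKM in BMDM, and Hp, which encodes haptoglobin, had 11.5, 16.5 and 13.5. These values were nearly level between the libraries in which Camp and Ngp differed most. Cybb, the oxidase subunit that monocytes and neutrophils share, had 291, 279 and 283 FPKM, and Chi3l3, which has a near-identical relative in the mouse genome, had 258, 366 and 402. Fcnb, which encodes ficolin B, had 5.31, 28.3 and 6.17, and Pglyrp1, a peptidoglycan binding protein, had 2.95, 11.3 and 2.53; these 2 were at least 2-fold higher in replicate 2.

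Of the transcription factors of granulocyte and monocyte development, 6 were tested, and Cebpb, Myb and Klf4 were higher in BMDM. None of the 6 was at least 2-fold above both other BMDM libraries in replicate 2. Gfi1, a repressor needed for neutrophil development, was under the minimum for testing, with 0.124, 2.88 and 0.248 FPKM in BMDM and 0 in each BSM library. Cebpe, known to control specific granule genes, was also under the minimum, at 0.0260, 0.268 and 0.230. Myb, a factor of progenitors, had 1.78, 7.17 and 3.84 FPKM, the library order of the azurophil members and also of Cebpb. Klf4, a monocyte factor, had 11.97, 9.10 and 13.8.

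Genes of other cell types also differed between replicate 2 and the other BMDM libraries, and their part in the granule result was not tested. The 16 mature neutrophil genes summed to 47.6, 228 and 56.1 FPKM in BMDM and to between 11.6 and 20.2 in BSM. S100a9 and S100a8, the subunits of calprotectin, made up the larger part of that sum in replicate 2, at 10.2, 130 and 12.2 FPKM and at 4.73, 59.3 and 7.15. Cxcr2 and Retnlg, tested only through replicate 2, were at least 2-fold higher in it as well. Thus 4 of 7 tested genes of this list were, beside 4.01% of all tested genes. Of the 7, 4 were higher in BMDM than in BSM. Csf3r, the receptor of granulocyte colony-stimulating factor, did not share the excess in replicate 2, with 10.2, 9.54 and 12.5 FPKM in BMDM. It had 20.2, 15.1 and 11.5 FPKM in BSM and so made up nearly all of the BSM sum of this list. Mcemp1, listed under an older symbol, had 12.96, 13.9 and 14.7. Ly6g, the antigen that the sort excluded, was listed at an FPKM of 0 in BMDM replicates 1 and 3 and of 0.293 in replicate 2. Its ALEXA-Seq values in BMDM replicates 1, 2 and 3 were 0, 5.24 and 1.01.

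The 8 eosinophil, basophil and mast cell genes summed to 11.7, 90.2 and 9.92 FPKM in BMDM and to at most 0.0133 in BSM. Of these, 3 were tested, and 3 were higher in BMDM than in BSM, beside 45.3% of all tested genes. These 3 were listed at 0 in BSM, so the count is no support. Prg2, the major basic protein of eosinophils, had 2.82, 64.5 and 1.73 FPKM. Ear1, an eosinophil ribonuclease with close relatives in the mouse genome, had 11.8 in replicate 2 and 2.13 and 0.789 in the others. The 7 erythroid genes summed to 8.59, 49.6 and 7.495 FPKM in BMDM, and 3 of 3 tested were higher in BMDM than in BSM. Those 3 were at or close to 0 in BSM and were tested through BMDM values, so their count is no support either. Hba-a1, at 3.80, 21.6 and 3.08 FPKM, and Hbb-b1, at 2.23, 14.6 and 2.92, are globin genes with near-identical copies, so their own levels are uncertain. The 8 lymphocyte genes summed to 0.661, 8.86 and 1.93 FPKM, of which Nkg7, the only one tested, made 0.291, 5.33 and 0.647 and was not called.

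The 8 progenitor genes summed to 213, 233 and 267 FPKM in BMDM. Of 5 tested, 3 were higher in BMDM and Cd34 was higher in BSM, and 1, Ms4a3, was at least 2-fold above both others in replicate 2. Ms4a3, a gene of granulocyte-monocyte progenitors, had 0.315, 3.70 and 1.31 FPKM, the library order of the azurophil members and also of Top2a. Mki67, a marker of dividing cells, had 131, 86.6 and 146 FPKM and was lowest in replicate 2, whereas Top2a had 74.7, 134 and 108.

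The 7 monocyte genes summed to 364, 353 and 399 FPKM in the 3 BMDM libraries and to between 112 and 174 in BSM, and 0 of 6 tested were at least 2-fold higher in replicate 2. Of these 6, 4 were higher in BMDM, and Csf1r and Fcgr1 were higher in BSM. Ccr2, the chemokine receptor of marrow monocytes, had 166, 136 and 158 FPKM in BMDM. The 7 microglia genes, among them Sparc, P2ry12 and Cx3cr1, were all higher in BSM and summed to between 713 and 798 FPKM there and to between 7.24 and 8.82 in BMDM. The microglia genes and 4 of the 6 tested monocyte genes thus followed the labels in every library, replicate 2 included. Csf1r, the gene of the sort antigen CD115, did not. It had 19.1, 21.3 and 21.2 FPKM in BMDM and 158, 131 and 102 in BSM. Genes named beyond the 4 most abundant of a list were chosen after their values were seen.

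**Figure D4:**
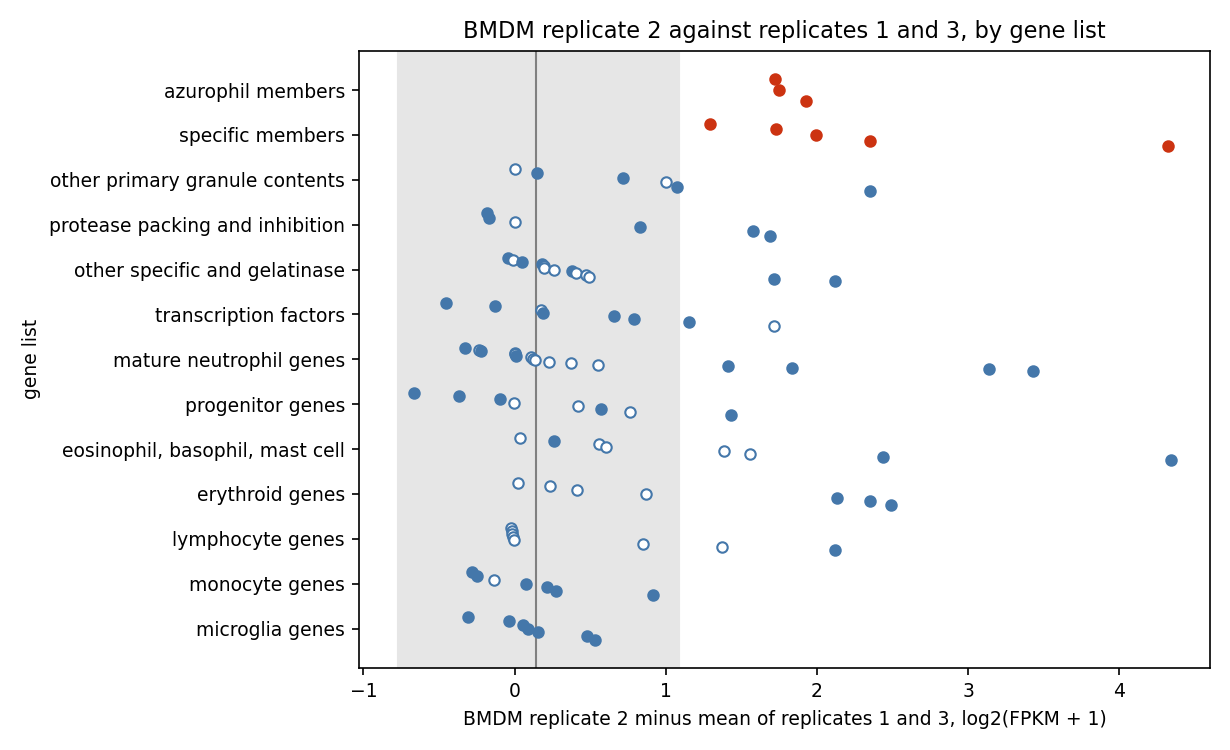
Excess of BMDM replicate 2 over the mean of replicates 1 and 3 in log2(FPKM + 1) for each gene of each list (1 point per gene, members in red, other lists in blue, open points under the minimum FPKM of 3); the grey line is the median of all 6364 tested genes, 0.14, and the band spans 5% to 95% of them. All 8 members lie to the right of the band, as do some genes of other lists, neutrophil, eosinophil and erythroid genes among them, while monocyte and microglia genes lie within it.

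Over the 6 libraries, the genes whose log2(FPKM + 1) was most like the mean of the azurophil genes were Nek2 and ENSMUSG00000084106 (Pearson's r of 0.999 each), Depdc1b and Ccdc99 (0.998 each) and Cdc2a (0.997), among 2879 genes that reached an FPKM of 10. Nek2 had 3.77, 15.5 and 6.16 FPKM in BMDM and at most 0.00901 in BSM. Most like the mean of the specific genes were Prg2 (r = 0.993), Mfsd5 (0.991), and Plrg1, Tbc1d13 and Hba-a1 (0.990 each). The lists of 5 shared no gene. The 6 points fall into the 2 cell types and share their library with the members, so these values describe likeness and carry no test.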

How the data were processed

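RNA-Seq of 3 BMDM and 3 BSM libraries was analysed. RNA from sorted cells was amplified with the Ovation method before paired-end sequencing. Per the labels, the authors used CASAVA 1.7.0, Bowtie 0.12.7, TopHat 1.3.1 and Cufflinks 1.0.3 with the mm9 build, and deposited FPKM per gene. The authors also deposited an ALEXA-Seq expression signal per gene, whose normalization is not given in the sources used here. Mapped reads are listed by the study for each library, but reads per gene were not analysed here, so the depth behind a single gene's value is unknown. Starts in the FPKM table count from 0 (7538 of 17762 spans then equal those of GENCODE M21, against 265), and positions are printed from 1.

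Genes reaching an FPKM of 3 in any library were tested with limma 3.58.1 (R 4.3.3, moderation with a trend) on log2(FPKM + 1), with Benjamini-Hochberg adjustment over 6364 genes and a threshold of 0.05. As many ALEXA-Seq entries, by highest value, were tested alike. On simulated data the step recovered 0, 141 and 187 of 200 genes changed by log2 differences of 1, 2 and 4 between BMDM and BSM, with 0, 6 and 9 false calls. Only these 200 of 6364 genes were changed there, whereas 54.5% of the tested genes were called in the data. The adjustment depends on that share, so the recovery in the data is not known from this. The replicates are described as biological replicates from separate sets of pooled mice. Python 3.11.15, pandas 2.3.3, numpy 2.4.6, scipy 1.17.1 and matplotlib 3.10.9 were used, and blastn 2.17.0 found copies (at least 100 bases at 95% identity).

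The members, gene lists and comparisons were chosen with earlier results of these data known. Named were all members, up to 4 genes of each list by highest FPKM, the 10 genes with the largest excess of BMDM replicate 2 over the higher of the other BMDM libraries that passed 2-fold in both tables, and the 5 genes most like each granule group. Older symbols were matched through RefSeq synonyms. A few list genes are not reported here and were left out of the list counts and sums. Alternatives were the pseudocount, the minimum, scalings, moderation, library weights, a replicate block and leaving out each library.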

Additional observations from a re-analysis of the deposited data

How the results depend on the processing

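For single members, the difference between BMDM and BSM was positive in 192 of 192 results under the alternatives, over both tables. In BSM the members stood at or below 0.0623 FPKM and 1.62 in ALEXA-Seq values. The sign could therefore hardly change, and the count is no support. Without BMDM replicate 2, Prtn3, Ltf, Camp and Lcn2 were not tested and are not in this count. Mpo, Ctsg and Cd177 passed under all 15 FPKM alternatives, with adjusted p-values of at most 0.0182. The number of members called in FPKM, 6, was 3 with no minimum and 3 after quantile normalization, and in ALEXA-Seq it was 4, against 8, without BMDM replicate 2, because only those 4 were then tested. Prtn3 passed under 5 of 14 alternatives (adjusted p from 0.00379 to 0.143) and Ngp under 10 of 15 (0.00177 to 0.119). Prtn3 did not pass without BMDM replicate 3 (limma adjusted p = 0.0904) or without BSM replicate 1, 2 or 3 (0.0699, 0.0914 and 0.0947), and Ngp did not pass without BSM replicate 1 (0.0525). Lcn2 was lost with no minimum (0.0785) and after quantile normalization (0.0611). Ltf and Camp passed in FPKM only with a pseudocount of 0.1 (0.0248 and 0.0339), and in ALEXA-Seq they were lost after quantile normalization (0.0847 and 0.0550).

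Over all genes, 2883 were higher in BMDM and 587 in BSM in FPKM. The split was 973 and 1582 with libraries scaled to the same sum, 1378 and 1227 with quantile normalization and 1380 and 1051 with upper quartile scaling. In ALEXA-Seq, 2359 were higher in BMDM, against 1439 after quantile normalization. Leaving out 1 library gave between 1451 (without BMDM replicate 3) and 3219 (without BSM replicate 1) higher in BMDM, with 1545 without BMDM replicate 2, and between 1974 and 4085 genes called in either direction, against 3050. The cause was not tested. The share of genes at least 2-fold higher in BMDM replicate 2, 4.01%, was 6.43% with a pseudocount of 0.1, 7.5% in ALEXA-Seq, 1.35% at 3-fold, where 4 members passed, and 2.03% for genes at an FPKM of 3 in BMDM replicate 1 or 3, where 4 members were left and 4 passed. The number of members past 2-fold, 8, was 7 under quantile normalization and 7 under same-sum scaling. The excess of Ltf and Camp in replicate 2, 1.73 and 2.35 on the log2 scale, was 2.99 and 3.74 with a pseudocount of 0.1.

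Whether the replicate numbers pair the samples could not be settled. The deviations of same-numbered BMDM and BSM libraries correlated at -0.0195, -0.00836 and 0.134, the last being the highest of all pairs. BMDM replicates 1 and 2 correlated best with BSM replicates 3 and 1. Such correlations cannot show whether same-numbered sets were collected together, and by the labels these sets shared their sex. With the replicate block, 3471 genes were called in FPKM, against 3470, and 2885 in ALEXA-Seq, and the adjusted p-value of Prtn3 was 0.0507. Amplification from small amounts of RNA and the unknown number of reads behind each gene limit the low values, and Prtn3, Ltf, Camp and Lcn2 rest on BMDM replicate 2 for their test.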

Other observations

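Of the genes tested, 171 were at least 2-fold higher in BMDM replicate 2 than in both other BMDM libraries in FPKM and in ALEXA-Seq values. The 10 with the largest excess over the higher of the others, on the log2(FPKM + 1) scale, were Ngp (4.14), Prg2 (4.10), S100a9 (3.31), S100a8 (2.89), Ear6 (2.81), Zbtb8os (2.68), Kctd14 (2.36), Fbxo36 (2.34), Camp (2.31) and Elane (2.29). Neutrophil granule and calprotectin genes (Ngp, Camp, Elane, S100a8 and S100a9) and eosinophil genes (Prg2 and Ear6) thus stood beside Zbtb8os, Kctd14 and Fbxo36, which are in none of the lists. Zbtb8os had 4.56, 46.7 and 6.43 FPKM in BMDM replicates 1, 2 and 3, and between 0.852 and 3.74 in BSM. Kctd14 had 0.516, 12.1 and 1.55 in BMDM and at most 0.00685 in BSM. Fbxo36 had 0.132 and 4.71 in BMDM replicates 1 and 2, and it was listed at 0 in replicate 3. Ear6 had 0.680 and 10.8 and was likewise listed at 0 in replicate 3. These are values of single libraries with no test. Camp, Prg2, Ear6, Kctd14 and Fbxo36 reached the minimum FPKM only through replicate 2, so an excess there was built into their inclusion.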
